A study of Homo sapiens with 3 samples.

Results

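The genes examined were 7 members of the heterogeneous nuclear ribonucleoprotein (hnRNP) family, HNRNPA2B1, HNRNPA1, HNRNPC, HNRNPK, HNRNPU, HNRNPD and HNRNPH1, and the RNA 3′ ends found within them. They were taken by name, each through a window of genome positions on its strand, and counts at positions within 24 nt of a local maximum were merged into 1 end. Of 10843 nuclear ends that passed the abundance filter in the whole data set, 24 lay in these windows. The genes were in part chosen by measured values: the most upstream main end of HNRNPA2B1 had been seen to be very low in captured RNA, so its ratios to input are given as a description.

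The cells were HEK293T, an established human embryonic kidney cell line, and 3 libraries were compared, each the only library of its group (n = 1). For 4sU 30 min and 4sU 60 min, cells were kept with 4-thiouridine (4sU), a uridine analogue that enters newly made RNA, for 30 or 60 min, and the labelled RNA was captured. The input is named after the 30 min labelling and stands for steady-state RNA, although its treatment field reads none. The assay, 2P-seq, counts RNA ends at the junction with the poly(A) tail, and in the 4sU libraries the initial poly(A) selection was omitted. Ratios to input therefore hold the capture and this difference together, and their parts cannot be told apart. Each molecule gives 1 end, so counts were not divided by gene length.

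The hnRNP proteins are abundant nuclear RNA-binding proteins that coat transcripts as they are made and act in splicing, export, translation and decay. Several of them are known to regulate their own mRNAs, and many of their genes have more than 1 poly(A) site, so that mRNAs of 1 gene differ in the length of their 3′ end. As background, RNA that turns over slowly takes a smaller share of captured than of total RNA after a short labelling; turnover was not measured here.

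Nuclear counts came to 32768468 for input, 9652023 for 4sU 30 min and 6151986 for 4sU 60 min, and levels are given as counts in each 1000000 of these (CPM). Mitochondrial RNA, kept apart, took 7.46% of all input counts and 31.8% and 31.1% of those after 30 and 60 min of labelling. Counting it in the total moved the member counts given below. Ratios carry 95% intervals of a ratio of 2 Poisson counts, and shares carry Wilson 95% intervals. They cover counting error and not the spread between cultures, and PCR copies are not independent molecules, so no p-value is given. A value was called higher or lower when it differed at least 2-fold and its interval excluded 1. In bulk RNA, fewer cells with an RNA and less of it per cell cannot be told apart. Markers of the cell line were not analysed here.

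The identity of the windows was checked by spacing. RefSeq 3′ ends of neighbouring genes were laid over the sites, and in all 7 windows 1 spacing matched at least 2 times as many neighbours as the next best, for instance 16 against 2 for HNRNPA1 and 5 against 1 for HNRNPK. At that spacing the RefSeq end of HNRNPA2B1 fell 1 nt from the end at 26229548 and that of HNRNPA1 fell 1 nt from the end at 54680870. The opposite strand of the 7 windows held 34 counts in all 3 libraries together. RefSeq lists 75 pseudogenes named after HNRNPA1, 9 after HNRNPC, 5 after HNRNPK, 3 after HNRNPH1, 2 after HNRNPD, 1 after HNRNPU and 0 after HNRNPA2B1, and what was done with reads matching more than 1 place was not given in the sources used here. Values of the genes with such copies are uncertain to that extent.

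Summed over each gene, 4 of the 7 hnRNP genes were called lower in captured RNA than in input and 0 were called higher, at 30 and at 60 min alike. Over all single ends that passed the abundance filter, 17.1% were lower and 35.3% higher at 30 min, and 21.8% and 27.3% at 60 min. A sum over the ends of a gene is not the same measure as a single end. With mitochondrial counts in the total 5 genes were lower at 30 min and 6 at 60 min, and with median-of-ratios or TMM scaling 5 were at each time. HNRNPA2B1, whose protein binds RNA in splicing and in the transport of mRNAs and microRNAs, had 797 CPM in input, 199 CPM in 4sU 30 min and 142 CPM in 4sU 60 min. It was thus 4.01-fold lower at 30 min (3.83 to 4.20) and 5.62-fold lower at 60 min (5.25 to 6.01), the largest difference among the 7. These sums include the end that chose the gene.

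HNRNPC, a nuclear protein that binds uridine-rich tracts, had 642 CPM in input, 238 CPM at 30 min and 272 CPM at 60 min. It was 2.69-fold lower at 30 min (2.58 to 2.81) and 2.36-fold lower at 60 min (2.24 to 2.48). HNRNPD, also known as AUF1, binds AU-rich elements of unstable mRNAs and had 476 CPM in input, 178 CPM at 30 min and 188 CPM at 60 min. It was 2.67-fold lower at 30 min (2.54 to 2.81) and 2.53-fold lower at 60 min (2.38 to 2.69). HNRNPK, a KH-domain protein that binds cytidine-rich RNA, had 462 CPM in input, 219.85 CPM at 30 min and 222 CPM at 60 min, or 2.10-fold (2.01 to 2.20) and 2.08-fold (1.97 to 2.20) lower. Its highest end alone, with ratios of 0.503 and 0.528, was not called. In HNRNPC, HNRNPD and HNRNPK the input was above both captured libraries, and the captured libraries differed from each other by far less than either did from the input.

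The other 3 genes were not called in CPM of nuclear counts. HNRNPH1, which binds runs of guanosines near splice sites, lay at the threshold, with 156 CPM in input, 78.1 CPM at 30 min and 78.5 CPM at 60 min. It was called lower at both times under each of the 3 other scalings, with ratios between 0.369 and 0.388 at 30 min and between 0.375 and 0.481 at 60 min. HNRNPU, known as scaffold attachment factor A and bound to both RNA and chromatin, had 808 CPM in input, 573 CPM at 30 min and 503 CPM at 60 min, which was 1.41-fold (1.37 to 1.45) and 1.61-fold (1.55 to 1.67) lower. With mitochondrial counts in the total it was called lower at 60 min, at a ratio of 0.464. HNRNPA1, the best-known splicing repressor of the family, had 1089.65 CPM in input, 1161 CPM at 30 min and 965 CPM at 60 min. Its ratios to input were 1.07 (1.04 to 1.09) and 0.886 (0.862 to 0.910), and under the 3 other scalings they lay between 0.660 and 0.845, also within 2-fold, while its ends differed widely.

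**Figure D1:**
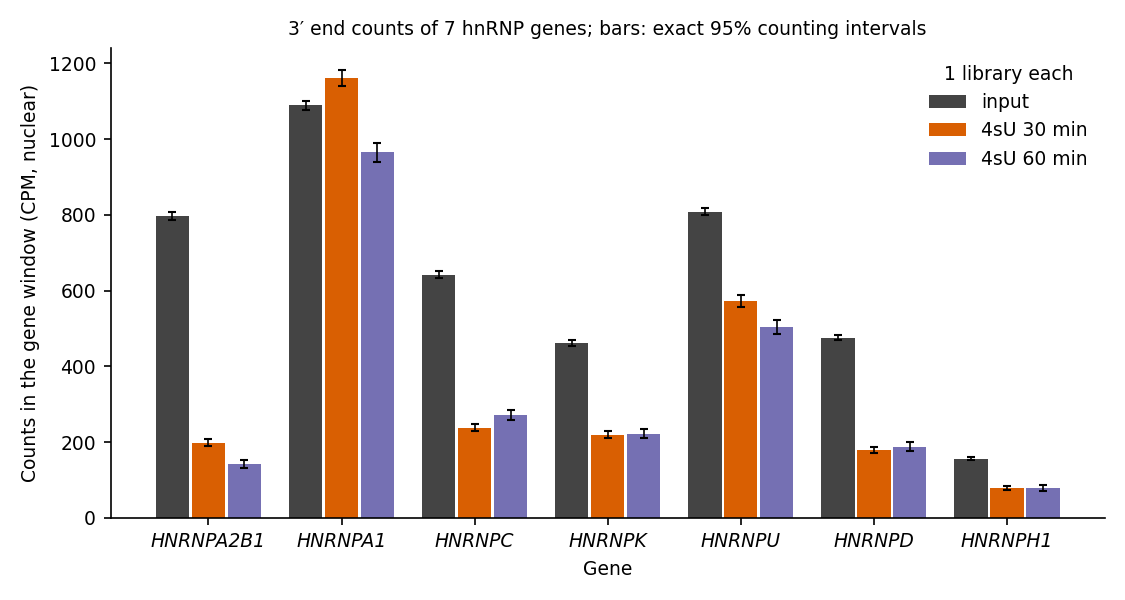
Counts on the gene's strand in the window of each of 7 hnRNP genes, in CPM of nuclear counts, for input (dark grey), 4sU 30 min (orange) and 4sU 60 min (purple), 1 library each; error bars are exact 95% counting intervals. HNRNPA2B1 dropped from 797 CPM in input to 199 and 142 CPM in captured RNA, while HNRNPA1 stayed between 965 and 1161 CPM.

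The promoters of the genes with the lowest and the highest ratio at 30 min among those in the RefSeq promoter table are shown, because 4sU marks the RNA made from them during labelling. Of the members, 6 were matched in that table through 10 promoter entries and HNRNPA1 was not. The sequences below are the 250 bases before the gene start, in GRCh38.p14, which is not the numbering of the count tables. Capitals mark CCAAT and GGGCGG on either strand (ATTGG and CCGCCC when read on the other), and in HNRNPU the CCAAT and ATTGG matches overlap.
HNRNPA2B1, chr7:26200747-26200996, minus strand: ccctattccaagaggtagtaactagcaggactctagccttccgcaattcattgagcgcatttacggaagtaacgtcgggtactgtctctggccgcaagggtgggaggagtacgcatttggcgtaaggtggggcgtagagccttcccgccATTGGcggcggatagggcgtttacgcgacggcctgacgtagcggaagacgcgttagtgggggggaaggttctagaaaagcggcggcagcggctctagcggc
HNRNPU, chr1:244864544-244864793, minus strand: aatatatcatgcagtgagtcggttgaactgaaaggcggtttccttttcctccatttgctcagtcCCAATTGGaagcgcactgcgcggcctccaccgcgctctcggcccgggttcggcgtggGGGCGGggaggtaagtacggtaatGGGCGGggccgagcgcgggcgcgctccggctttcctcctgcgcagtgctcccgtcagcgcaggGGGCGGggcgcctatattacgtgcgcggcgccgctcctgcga
CCAAT was found in 4 of the 10 member entries (of HNRNPA2B1, HNRNPC, HNRNPK and HNRNPU) and in 32.0% of all 35116 promoters of the table. GGGCGG was found in 5 of the 10, for each matched gene but HNRNPA2B1, and in 42.6% of all promoters. TATAA, or TTATA when read on the other strand, was found in 2 of the 10 (HNRNPC and HNRNPD) and in 18.9% of all promoters. Counted by entry, these shares lay near those of all promoters. Counted by gene, CCAAT was found in 4 of 6, GGGCGG in 5 of 6 and TATAA in 2 of 6. The shares of all promoters count entries and are not comparable with those by gene. These matches describe the letters of a window and no binding was measured.

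The windows held 60 ends of at least 20 counts, of which 24 had a mean of at least 10 CPM over the 3 libraries and were compared. An end high in 1 library passes this filter through that library, so the counts that follow describe the ends that passed. At 30 min, 11 of the 24 were lower than in input and 1 was higher, against 17.1% lower and 35.3% higher among all 10843 sites. At 60 min, 13 were lower and 1 was higher, against 21.8% and 27.3%. The median log2 ratio to input of the 24 ends was -0.99 at 30 min and -1.21 at 60 min, beside 0.37 and 0.063 over all sites. Without the 4 ends of HNRNPA2B1, 10 of 20 were lower at 30 min and 11 of 20 at 60 min. Both comparisons share the input library.

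Scaling moved the 30 min count and, with mitochondrial counts in the total, the 60 min count. At 60 min 19 of the 24 ends were then lower, beside 32.4% of all sites. With median-of-ratios and TMM scaling 13 and 14 were lower at 60 min, beside 23.4% and 24.3% of all sites. With median-of-ratios or TMM scaling 17 of the 24 ends were lower at 30 min, and with mitochondrial counts in the total 18 were, while 24.9%, 25.4% and 26.7% of all sites were lower under these scalings. The same scalings moved the median log2 ratio of all sites at 30 min from 0.37 to 0.0029, -0.015 and -0.070. Of all sites called at 30 min, 67.3% were higher, and 53.1%, 52.4% and 50.2% were under those scalings; at 60 min 55.7% were higher, and 38.2% with mitochondrial counts in the total.

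The filter on low values set how many ends were compared. Among the 13 ends with a mean of at least 50 CPM, 6 were lower and 1 was higher at 30 min, against 22.3% and 27.6% of 3041 sites. Beside the 11 of 24 ends above, the share that was lower at 30 min differed little. At 60 min 6 of these 13 were lower and 1 was higher, against 22.9% and 23.1%. Without the filter, 21 of the 60 ends were lower at 30 min and 8 were higher, beside 11.6% and 43.2% of 58672 sites with at least 20 counts. At 60 min 20 of the 60 were lower and 8 higher, beside 13.6% and 30.1%. Most of the ends that were higher thus lay below the filter.

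**Figure D2:**
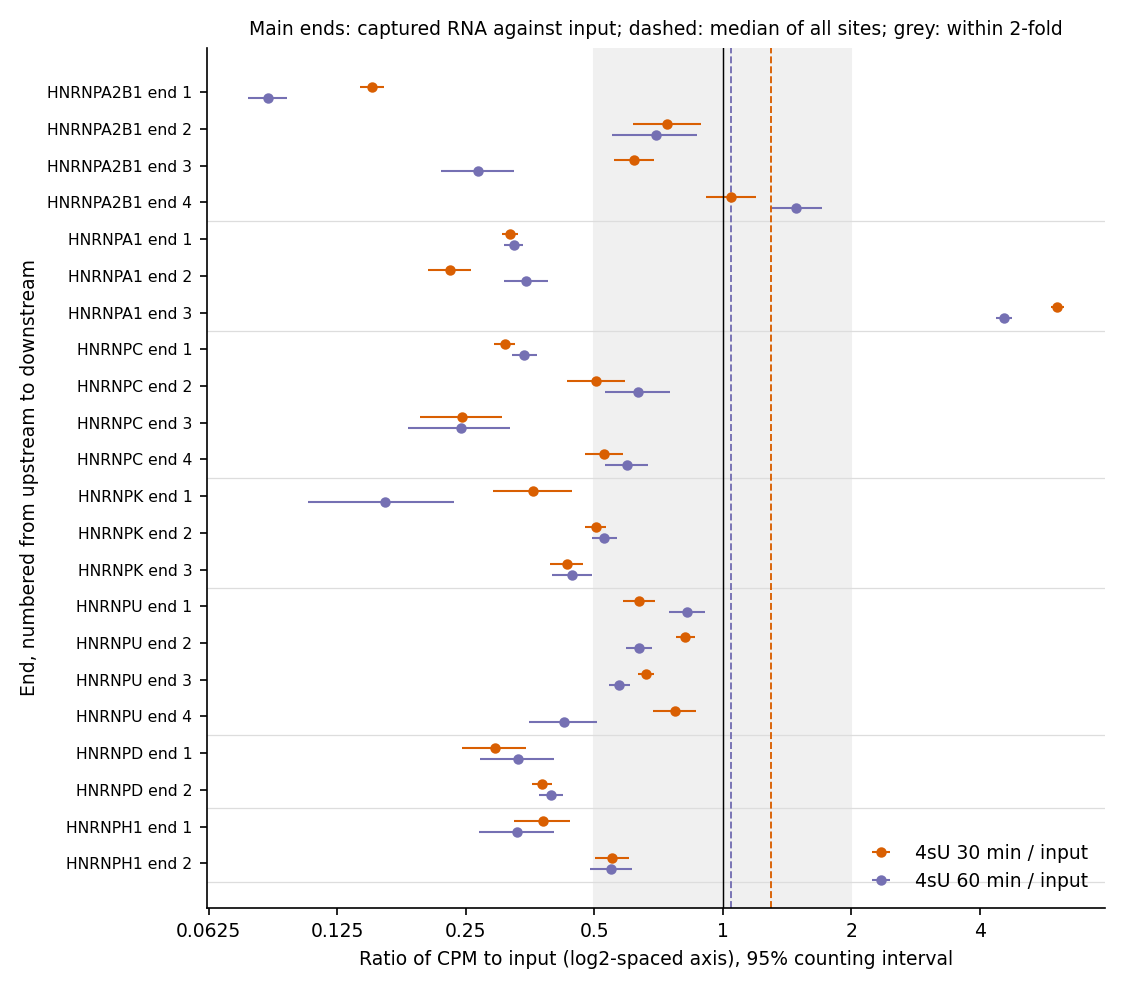
Ratio of CPM in 4sU 30 min (orange) and 4sU 60 min (purple) to input, on a log2-spaced axis, for the 22 main ends (at least 5% of a window's counts in a library), numbered from upstream to downstream within each gene; bars are 95% counting intervals, the grey band is within 2-fold and dashed lines are the medians of all sites. The most upstream HNRNPA2B1 end lies farthest left, at 0.151 and 0.0860, and the most downstream HNRNPA1 end farthest right, at 6.07 and 4.55.

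HNRNPA2B1 had 4 main ends on the minus strand of chromosome 7. The most upstream one, which chose the gene, lies 1919 nt upstream of the end at chr7:26229548. It had 22059 counts in input, 979 after 30 min of labelling and 356 after 60 min. In CPM these were 673, 101 and 57.9, or 6.64-fold (6.22 to 7.08) and 11.6-fold (10.5 to 12.95) lower than input. Of the 10843 sites, 57 had a lower ratio at 30 min and 6 at 60 min. Of the 1478 sites with at least 100 CPM in input, these numbers were 17 and 0. The end was chosen for being low in captured RNA, so its place among all sites was in part set in advance. The next main end lies 1540 nt downstream.

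The 3 downstream ends of HNRNPA2B1, which the rule did not use, did not share this drop to the same degree. As the upstream end was chosen for being low, a smaller drop at other ends was in part set in advance. The most downstream end, at 26229548, had 28.4 CPM in input, 29.7 CPM at 30 min and 42.1 CPM at 60 min. In CPM of nuclear counts it was thus as high in captured RNA as in input or higher. Its ratios to input were 1.05 (0.914 to 1.20) and 1.48 (1.29 to 1.70), both within 2-fold. The 3 other scalings lower ratios to input at 30 min, for the sum of the gene from 0.249 to between 0.184 and 0.193. The end at 26229927 had 20.6, 15.2 and 14.3 CPM in the order input, 30 min and 60 min, with ratios of 0.740 (0.615 to 0.886) and 0.695 (0.550 to 0.870). The end at 26229748 behaved differently between labelling times, with 65.6 CPM in input, 40.7 CPM at 30 min and 17.6 CPM at 60 min. It lay within 2-fold of input at 30 min and was 3.74-fold lower at 60 min (3.08 to 4.58). It was 1 of the 2 member ends called lower at 60 than at 30 min, by 2.32-fold (1.87 to 2.90), although it lies 200 nt from the most downstream end, which had its highest level at 60 min.

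As a share of the main ends of HNRNPA2B1, the most downstream end held 3.61% in input (3.39 to 3.84), 15.9% at 30 min (14.3 to 17.6) and 31.9% at 60 min (28.8 to 35.2). The change from input was 12.3 percentage points at 30 min (10.7 to 14.1) and 28.3 points at 60 min (25.2 to 31.6), and from 30 to 60 min it was 16.04 points (12.5 to 19.7). The share at the most upstream end went the other way, from 84.5% of the window in input to 51.0% and 40.8% in captured RNA. That end chose the gene for being low, so a higher share downstream was in part set in advance.

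Within the upstream HNRNPA2B1 end, cleavage positions were used in different proportions. The highest position held 67.5% of the end's counts in input (66.9 to 68.1), 45.8% at 30 min (42.7 to 48.9) and 59.3% at 60 min (54.1 to 64.2). The adjoining positions 5 and 6 nt upstream held 18.95% in input (18.4 to 19.5), 36.98% at 30 min (34.0 to 40.0) and 21.6% at 60 min (17.7 to 26.2). For these 2 positions the 60 min interval overlapped that of input and lay below that of 30 min, so the 30 min library stood apart. Against input, these 2 positions together were 3.40-fold lower at 30 min and 10.2-fold lower at 60 min.

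**Figure D3:**
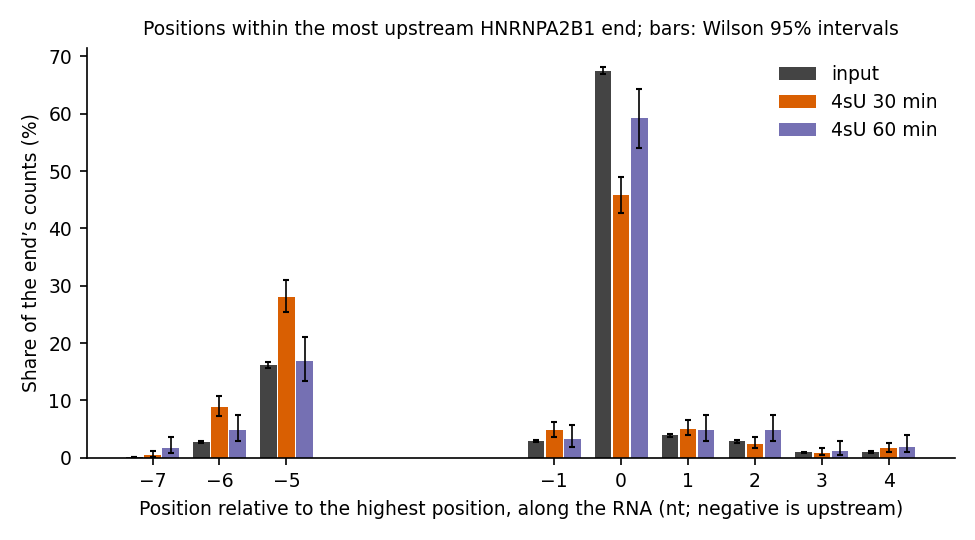
Share of the counts of the most upstream HNRNPA2B1 end (percent) at each position that held at least 1% in a library, by distance along the RNA from the highest position (nt, negative is upstream), for input (dark grey), 4sU 30 min (orange) and 4sU 60 min (purple); bars are Wilson 95% intervals. At 30 min the highest position held 45.8% against 67.5% in input, and the position 5 nt upstream held 28.1% against 16.2%.

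By the rule fixed for likeness, the 3 sites whose ratios at both labelling times were nearest to those of the HNRNPA2B1 end, among sites with a mean of at least 30 CPM, were chr12:96259911 on the plus strand, chr21:26957970 on the minus strand and chr2:170668569 on the plus strand. They were 6.28-, 5.57- and 5.79-fold lower than input at 30 min and 10.3-, 11.5- and 9.92-fold lower at 60 min. All of them had less input signal, from 93.4 to 228 CPM.

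HNRNPA1 had 3 main ends, and they moved in opposite directions. The most upstream, at chr12:54678663 on the plus strand, had 799 CPM in input, 254 CPM at 30 min and 259 CPM at 60 min, 3.15-fold (3.02 to 3.28) and 3.08-fold (2.93 to 3.25) lower than input. The end 369 nt downstream, at 54679032, had 142, 32.5 and 49.1 CPM in the same order, 4.36-fold (3.89 to 4.90) and 2.89-fold (2.57 to 3.26) lower. The most downstream end, at 54680870, lies 2207 nt from the most upstream one and was the reverse, with 143 CPM in input, 869 CPM at 30 min and 651 CPM at 60 min. It was 6.07-fold higher at 30 min (5.85 to 6.29) and 4.55-fold higher at 60 min (4.36 to 4.74). It was the 1 end of the 24 called higher than input, at both times.

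The share of HNRNPA1 main-end counts at the most downstream end was 13.2% in input (12.9 to 13.6), 75.2% at 30 min (74.4 to 76.0) and 67.9% at 60 min (66.7 to 69.1). The difference from input was 62.0 points at 30 min (61.1 to 62.9) and 54.7 points at 60 min (53.4 to 55.9). From 30 to 60 min the share changed by -7.33 points (-8.77 to -5.90), which is under the 10 points needed for a call. In input the upstream ends thus held most HNRNPA1 counts, and in both captured libraries the downstream end did.

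**Figure D4:**
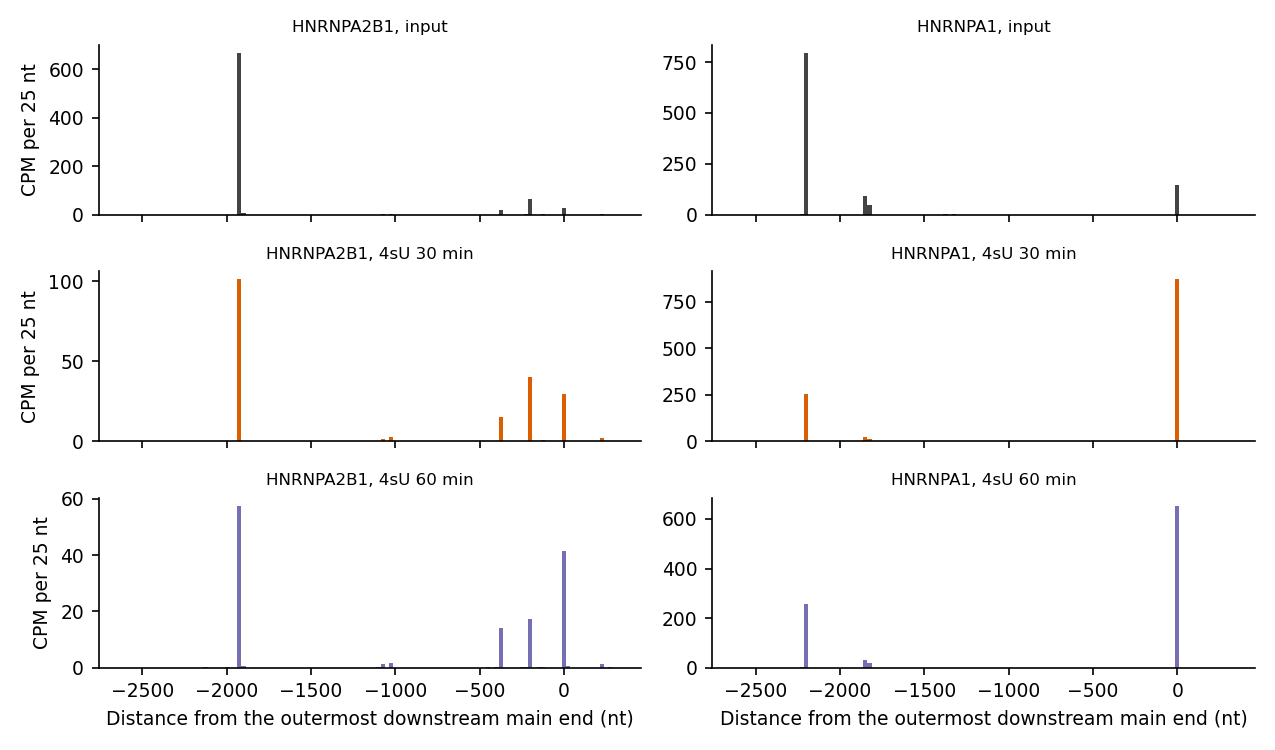
Counts per 25 nt in CPM along HNRNPA2B1 (left) and HNRNPA1 (right), by distance from the most downstream main end (nt, negative is upstream), in input (top), 4sU 30 min (middle) and 4sU 60 min (bottom); the vertical axes start at 0 and differ between panels. In HNRNPA1 the tallest bar moves from the most upstream end in input (799 CPM) to the most downstream one in captured RNA (869 and 651 CPM), while in HNRNPA2B1 the upstream end stays tallest and the ends 1540 to 1919 nt downstream gain in proportion.

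HNRNPC had 4 main ends over 1788 nt. The most upstream, at chr14:21679097 on the minus strand, held 69.4% of the window in input, 57.7% at 30 min and 56.2% at 60 min, and was 3.24-fold (3.06 to 3.43) and 2.92-fold (2.73 to 3.12) lower than input. The most downstream, at 21677309, was within 2-fold of input, with ratios of 0.527 (0.476 to 0.582) and 0.596 (0.529 to 0.669). Its share of main-end counts was 14.3% in input, 21.7% at 30 min and 21.8% at 60 min, changes of 7.34 points (5.54 to 9.23) and 7.49 points (5.39 to 9.73). The end 235 nt upstream of it, at 21677544, was 4.09-fold lower than input at 30 min (3.30 to 5.12) and 4.11-fold lower at 60 min (3.15 to 5.46), so neighbouring ends differed here too.

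In HNRNPK and HNRNPD the share of the most downstream end changed by under 3 points, as it did in HNRNPU, whose ends lay farther apart. The HNRNPK end at 86583094 held 64.3% of the window in input, 68.1% at 30 min and 70.7% at 60 min. HNRNPK had 3 main ends within 187 nt, and its most downstream end, at chr9:86582999 on the minus strand, held 29.0% of main-end counts in input, 26.4% at 30 min and 26.8% at 60 min. Its small most upstream end, at 86583186, had 28.2 CPM in input, 10.2 CPM at 30 min and 4.55 CPM at 60 min. From 30 to 60 min it was 2.23-fold lower (1.45 to 3.53), the other member end called between labelling times, and it rested on 98 and 28 counts. HNRNPD had 2 main ends 154 nt apart, and the downstream one, at chr4:83274987 on the minus strand, held 88.4% in input, 90.7% at 30 min and 90.1% at 60 min. The RefSeq end of HNRNPD lay outside its window, and extending the window to it left the ratios at 0.376 and 0.394.

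HNRNPH1 had 2 main ends 227 nt apart. The downstream one, at chr5:179041189 on the minus strand, held 66.0% in input, 73.9% at 30 min and 76.4% at 60 min, changes of 7.83 points (4.26 to 11.2) and 10.3 points (5.96 to 14.3). Its upstream end was 2.64-fold lower than input at 30 min (2.27 to 3.09) and 3.03-fold lower at 60 min (2.49 to 3.73), while the downstream one stayed within 2-fold. HNRNPU had 4 main ends over 1026 nt. At 30 min their ratios to input lay between 0.637 and 0.816. At 60 min 1 of them was called, the most downstream at chr1:245016691 (minus strand), with 50.3 CPM in input and 21.3 CPM after labelling, a 2.36-fold lower level (1.97 to 2.84). The end at 245016691 held 6.53% of main-end counts in input, 7.07% at 30 min and 4.51% at 60 min. These were changes from input of 0.538 and -2.02 points. The end of HNRNPU nearest its RefSeq end, at 245013601, carried 1.49% of the window in input and 1.61% and 2.65% in captured RNA.

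Counted over the 7 genes, the share of the most downstream main end was at least 10 points higher than in input in 2 at 30 min (HNRNPA2B1 and HNRNPA1). At 60 min it was higher in 3 (these and HNRNPH1), and it was lower in 0 at both times. The total of HNRNPA2B1 includes the end chosen for being low in captured RNA, so its higher share was in part set in advance. Without that gene, HNRNPA1 was higher at 30 min, and HNRNPA1 and HNRNPH1 at 60 min. Among 8321 groups of neighbouring ends over all chromosomes, the share was higher in 16.0% and lower in 9.72% after 30 min of labelling, and higher in 17.9% and lower in 9.99% after 60 min. Those groups were formed from ends at most 2000 nt apart and not from gene windows, and the median change over them was 1.70 points at 30 min and 1.88 points at 60 min. From 30 to 60 min 1 member, HNRNPA2B1, was higher and 0 were lower, against 7.79% and 6.97% of groups.

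**Figure D5:**
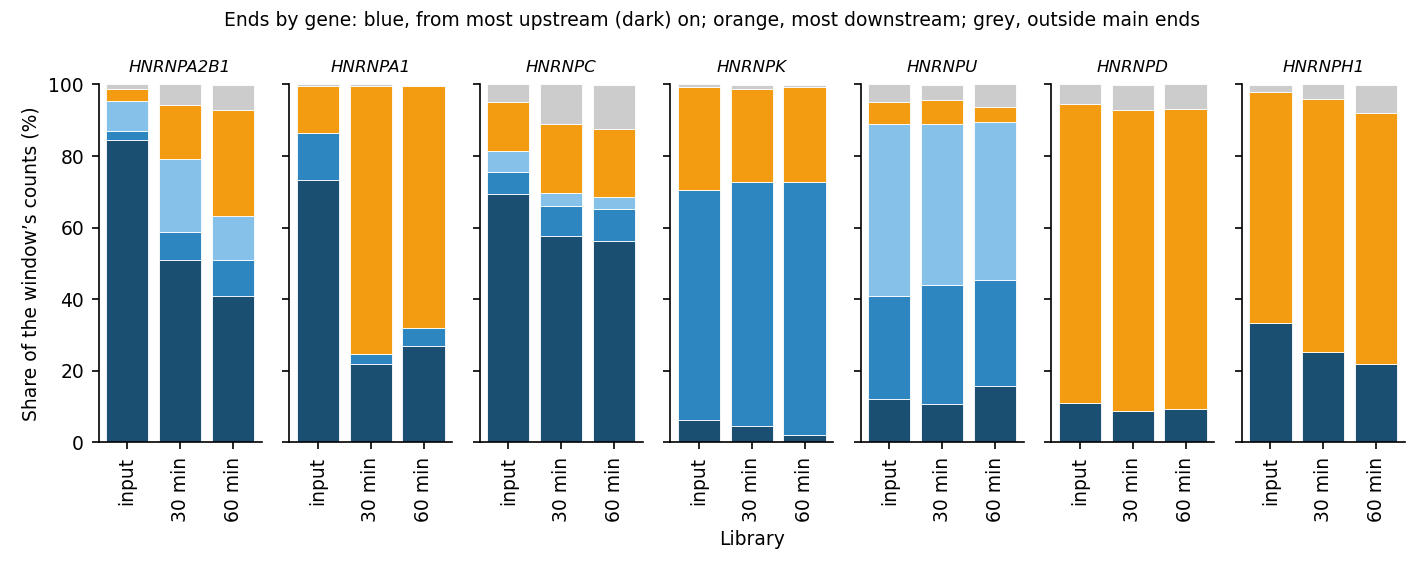
Share of each window's counts (percent) at its main ends in input, 4sU 30 min and 4sU 60 min; blue shades run from the most upstream end (dark), orange is the most downstream main end and grey is counts outside main ends. The orange part grows from 13.1% to 74.9% and 67.5% in HNRNPA1 and from 3.56% to 14.96% and 29.7% in HNRNPA2B1. It differs little in HNRNPD, HNRNPK and HNRNPU.

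Counts outside the main ends took a larger share in captured RNA in some genes. In HNRNPA2B1 they made up 1.15% of the window in input (1.03 to 1.29), 5.84% at 30 min (4.88 to 6.98) and 7.10% at 60 min (5.58 to 9.0004). In HNRNPC they were 5.01% in input (4.72 to 5.31), 10.9% at 30 min (9.70 to 12.2) and 12.4% at 60 min (10.9 to 14.0). In HNRNPH1 they were 2.15% in input (1.79 to 2.59), 4.11% at 30 min (2.91 to 5.78) and 8.07% at 60 min (5.96 to 10.8). In HNRNPD they went from 5.33% in input to 7.21% at 30 min, and in HNRNPU from 4.79% to 6.20% at 60 min, with intervals apart. At the other labelling time the intervals of HNRNPD and HNRNPU overlapped those of input, as did those of HNRNPK at both. In HNRNPA1 the intervals of input (0.420 to 0.565%) and captured RNA (0.323 to 0.568% and 0.396 to 0.780%) overlapped. Such a share also rises where the main ends are lower. The window of HNRNPA2B1 includes the end chosen for being low in captured RNA, so its higher share was in part set in advance.

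Between labelling times, 0 of 7 gene sums and 2 of 24 ends were called, both ends lower at 60 min, against 14.0% of sites lower and 4.58% higher. The median log2 ratio of the 24 ends was 0.012, beside -0.27 over all sites. HNRNPC was 1.14-fold higher at 60 min (1.07 to 1.22) and HNRNPA2B1 1.40-fold lower (1.29 to 1.52), the highest and the lowest of the 7. With median-of-ratios or TMM scaling 0 ends were called lower, and of all sites called 55.0% and 53.1% were higher, against 24.6%. Among ends of at least 50 CPM 0 of 13 were called either way, against 7.1% of sites lower and 4.08% higher. Without the filter 2 of 60 were lower and 3 higher, against 14.9% and 6.06%.

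Of 20 other genes of the family or of close kin, listed from general knowledge, 19 passed the spacing check, and their windows were compared in the same way. At 30 min 5 of 19 were lower than input and 3 higher, and at 60 min the counts were again 5 and 3, where the 7 genes above had 4 lower and 0 higher. Under each of the 3 other scalings 1 was higher at 30 min. The background for single sites, which are not gene sums, was 17.1% lower and 35.3% higher at 30 min, and 21.8% and 27.3% at 60 min. The median ratio was 0.965 at 30 min and 0.812 at 60 min, against 0.475 and 0.480 for the 7. HNRNPR, an RNA-binding protein close to SYNCRIP, was lowest at 30 min with 416 CPM in input and 129 CPM captured, 3.21-fold lower (3.03 to 3.41), and HNRNPH3, a relative of HNRNPH1, followed at 2.91-fold (2.60 to 3.28). At 60 min the order of these 2 was the reverse, at 3.66-fold (3.39 to 3.95) for HNRNPR and 3.85-fold (3.27 to 4.54) for HNRNPH3.

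PTBP1, the polypyrimidine tract binding protein, also called hnRNP I, was the highest, with 641 CPM in input, 2239 CPM at 30 min and 2050.07 CPM at 60 min, ratios of 3.49 (3.43 to 3.56) and 3.20 (3.13 to 3.27). HNRNPA0 followed at 30 min with a ratio of 2.44 (2.36 to 2.51), and HNRNPL, which binds CA repeats, followed at 60 min with 2.67 (2.31 to 3.08). The levels of hnRNP genes in captured RNA, relative to input, thus ranged from 4.01-fold lower in HNRNPA2B1 to 3.49-fold higher in PTBP1 at 30 min. HNRNPA2B1 was chosen through an end that was low in captured RNA, so this lower bound was in part set in advance. Without it the lowest was HNRNPR, at 3.21-fold lower. RALY, called higher at 60 min, had 40 counts in input and 16 at 60 min, and its RefSeq end lay outside its window; with the window extended to that end its ratio was 0.841 (0.764 to 0.925).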

How the data were processed

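The authors deposited raw counts of reads per genomic position and strand, 1 table per library, without normalization; cutadapt and Bowtie are named in the submitters' processing notes. Versions, build and the treatment of multiply mapped reads were not given in the sources used here. Positions are printed 1-based in the tables' numbering; windows are hg19 windows. On chromosome 1 they reached 249223263, past every gene that RefSeq places there in GRCh38.p14. Python 3.11.15, scipy 1.17.1 and edgeR 4.0.16 (TMM factors) were used. Positions were merged within 24 nt, highest first; main ends needed 20 counts and 5% of a window in a library. The named genes were all members, their main ends, and the 2 highest and 2 lowest other family genes with 100 counts. Where a library had no counts, its limit was taken as 3 counts. The design has no replicates. Scaling, merging distance, filters and window were varied. The members and lists were chosen with earlier results of these data known. No sequence around the ends was used here.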

Additional observations from a re-analysis of the deposited data

Results flagged for a closer look

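Inside the HNRNPC window, 2 ends below the filter on CPM had at most 3 counts in input, the limit that a count of 0 allows, and at least 20 counts in a captured library. They were picked for that contrast, and among all sites of at least 20 counts without the filter 43.2% were called higher than input at 30 min and 30.1% at 60 min. The end at chr14:21712224 on the minus strand, 33127 nt upstream of the first main end, had 0 counts in input, where up to 0.0916 CPM is allowed, 9 after 30 min of labelling and 64 after 60 min. It was 11.2-fold higher at 60 than at 30 min (5.52 to 25.5). With input put at the floor of 3 counts the 60 min value was 113.6 times that of input, and the lower 95% limit of the ratio of 64 to 0 counts was 89.77. The end at 21730412, 51315 nt upstream, had 3 counts in input against 24 after 30 min and 17 after 60 min, a ratio of 27.2 at 30 min (8.25 to 141).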

How the results depend on the processing

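No paired analysis was possible because each group had 1 library, and for the same reason no replicate could be left out. The count of member ends lower than input at 30 min was 11 of 24. It became 18 of 24 with mitochondrial counts in the total and 17 of 24 with median-of-ratios and with TMM scaling. With other filters fewer or more ends were compared, and it was 6 of 13 with a mean of at least 50 CPM and 21 of 60 without the filter. Ends higher went from 1 of 24 to 8 of 60 without the filter. At 60 min, 13 of 24 ends lower became 19 of 24 with mitochondrial counts in the total, 6 of 13 at 50 CPM and 20 of 60 without the filter. Ends higher than input at 60 min went from 1 of 24 to 8 of 60 without the filter. Between labelling times, 2 of 24 ends lower became 0 of 24 with median-of-ratios scaling and with TMM, and 0 of 13 at 50 CPM. Ends higher between labelling times went from 0 of 24 to 3 of 60 without the filter. The other family genes higher at 30 min went from 3 to 1 under each of the 3 other scalings; with mitochondrial counts in the total at 60 min, 5 lower became 8 and 3 higher became 1; and from 30 to 60 min 2 lower became 1 with median-of-ratios, with TMM and with the highest site alone. The cause was not tested. Extending the windows to the RefSeq ends was chosen after seeing the data. Merging within 12 or 50 nt and a minimum share of an end of 10% left the counts of changed shares as they were. A minimum share of 2% took the members with a higher share at 60 min than in input from 3 to 2. No gene sum that was called changed direction. Calls of gene sums did change. With the highest site alone HNRNPK lost its call at both times, and HNRNPA1 was called lower at both, with ratios of 0.318 and 0.324. HNRNPH1 gained calls at both times under the 3 other scalings, and HNRNPU gained one at 60 min with mitochondrial counts in the total. At 20 counts an end cannot show small differences.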
